A study of Bos taurus with 96 samples.

Results

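The genes described here encode the contractile apparatus of smooth muscle: CNN1 (calponin), ACTA2 (smooth muscle alpha actin), ACTG2 (smooth muscle gamma actin), MYH11 (smooth muscle myosin heavy chain), CALD1 (caldesmon), SMTN (smoothelin), SYNPO2 (synaptopodin 2), SORBS2 (a vinexin family adaptor) and MYLK (myosin light chain kinase). These 9 genes, of 10653 with a named probe on the array, are read by 24 probes, 23 of which were tested among 34227 probes. CNN1, ACTA2, MYH11, ACTG2 and SORBS2 entered because lists drawn from these same arrays hold them as higher in intramuscular fat than in muscle and than in other fat. CALD1, SMTN, SYNPO2 and MYLK were added with earlier results of these data known. Mean expression of intramuscular fat, subcutaneous fat, the remaining fat depots and muscle was therefore used in the choice, and differences of intramuscular fat or of subcutaneous fat from any tissue are given as description only.

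Smooth muscle in meat and fat lies in the walls of arteries, arterioles and veins. Force is made when a calcium-activated kinase phosphorylates the light chain of myosin, which then pulls on actin filaments anchored at dense bodies and dense plaques. Calponin and caldesmon sit on the actin filament and restrain the myosin, and CNN1, ACTA2 and MYH11 are widely used to recognise mature contractile smooth muscle cells. Skeletal muscle uses its own actin and myosin genes, although several proteins of the smooth muscle dense body also occur at the Z disc.

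Total RNA of *Bos taurus* tissues was hybridised to 96 one-colour arrays, 1 per sample. The steers were Angus, Hereford or Wagyu x Angus, and the labels give 259 d in a feedlot for all samples. The methods give an age of 26 months for the steers of the fat depots and say that part of the LD samples came from an earlier slaughter. The labels do not say which LD arrays these are, so time of slaughter cannot be told apart from diet or breed in LD. The fat depots were intramuscular (IMF), subcutaneous over the rump (SC), intermuscular (Inter), around the kidney (Kid) and omental (Omen). Each was read on 12 arrays, 4 per breed, from steers kept on pasture after weaning. Longissimus dorsi muscle (LD) was read on 36 arrays, 24 from pasture and 12 from steers given a supplement after weaning, with equal numbers per breed. IMF was dissected out of LD and held muscle, and LD was sampled with its marbling in place. Arrays of different depots came from steers that the labels do not name, so arrays of a breed are not independent across depots and p-values for breed are too small. The labels do not say whether replicates are separate steers. For the fat depots the methods give 4 individual animals per breed and depot. The p-values measure the spread between arrays.

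Expression is given as log2 signal relative to the 75th percentile of the array, so that 0 is the 75th percentile, and levels of different probes were not set against each other. Each gene is described by a lead probe and its other probes are given where they differ. The lead probes of all 9 genes were well above background on all 96 arrays. The 75th percentile itself had a median of 9.83 on the log2 scale on IMF arrays, 9.05 on SC arrays and 9.14 on LD arrays, and 10.01 to 10.2 on Inter, Kid and Omen arrays. In whole tissue, fewer cells of a type and less RNA per cell cannot be told apart.

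Markers of other cell types were read beside these genes as the mean over each list. Skeletal myofibre markers (12 of 14 genes had a probe) had a median over arrays of 7.45 in IMF (6.22 to 7.96), -3.97 in SC (-4.42 to -2.95) and 8.81 in LD (8.36 to 9.14). The muscle share of an IMF array, that is its place between the SC and LD means over 2723 muscle probes with the smooth muscle genes left out, was 28.9% ± 15.4 (SD, n = 12) and ranged from 9.08% to 49.1%. Adipocyte markers (8 of 8) had medians of 3.64 in IMF, 4.94 in SC and -0.38 in LD. Pericyte markers (7 of 9) were at 0.60 in IMF (-0.04 to 1.26), 1.40 in SC (1.14 to 1.68) and -0.53 in LD, and endothelial markers (9 of 10) at 1.92, 2.37 and 0.97. Both vessel lists thus had lower medians in IMF than in SC, with overlapping ranges for the pericyte list and for the endothelial list (1.39 to 2.46 and 2.10 to 2.74), and all markers with a probe in these 2 lists were above background on every array of IMF, SC and LD. Tendon and perimysium markers (6 of 7) were at 0.71 in IMF, -2.88 in SC and -1.07 in LD, and Schwann cell markers (7 of 7) at 0.21, -3.53 and -1.81. Their part in the results below was not tested.

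Single SC, Inter and Kid arrays stood apart in the 9 genes or in markers. The SC Hereford array below is among the 12 SC arrays in every SC value, difference and correlation and in every fit over the fat arrays, unless it is said to be left out. The SC Hereford array on slide 17, position 2, had a mean over the 9 lead probes of 4.75, whereas the other 11 SC arrays lay between 1.14 and 1.77. Its skeletal myofibre markers (-3.98) lay within the range of the others (-4.42 to -2.95), its pericyte markers were at 1.68 against 1.14 to 1.52, and its tendon and perimysium markers were at -0.59 against -3.44 to -2.50. The Inter Wagyu x Angus array on slide 5, position 2, had skeletal myofibre markers at 5.93 against -4.00 to 2.23 on the other 11 Inter arrays and a muscle share of 5.83%. Its mean over the 9 lead probes, 2.66, lay within the range of the other Inter arrays (1.25 to 2.68). On the Kid Hereford array on slide 21, position 1, the mean over the 9 lead probes was 0.69 against 1.45 to 3.04 on the other 11 Kid arrays, and all 9 were lower than on any other Kid array. By the scanner, 2 arrays had many spots marked as outliers, the Omen Angus array on slide 10, position 4 (5528 spots), and the IMF Wagyu x Angus array on slide 8, position 3 (2647), against 2 to 95 on the other 94 arrays.

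**Figure D1:**
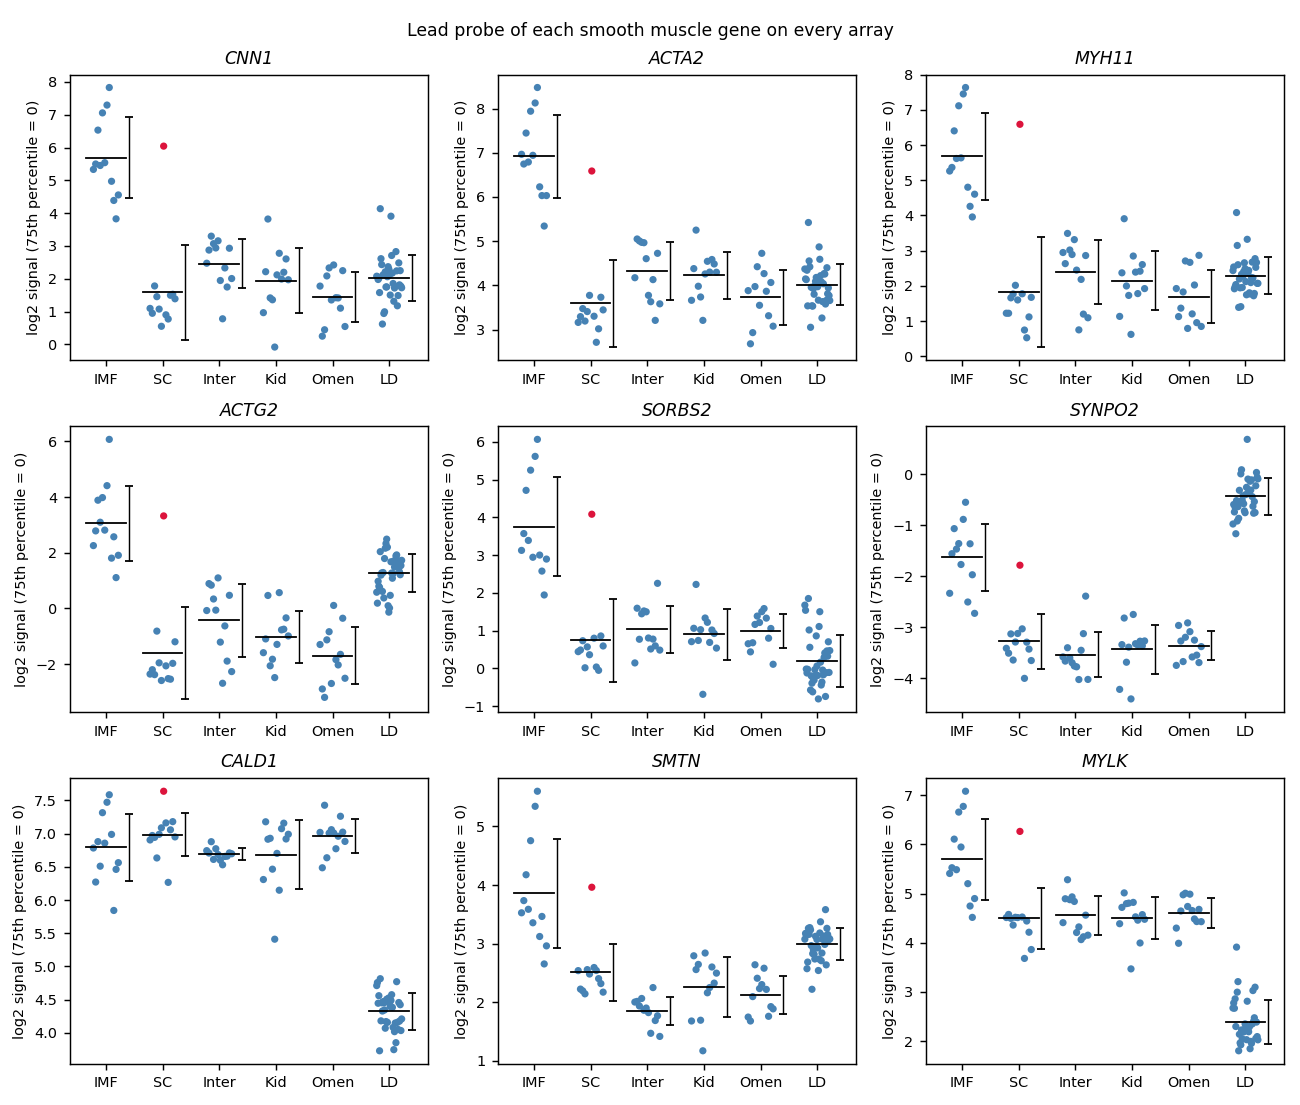
Level of the lead probe of each of the 9 genes on every array (points; vertical axis, log2 signal with the 75th percentile of the array at 0) in the 6 tissues, with the group mean (line) and SD (bar). CNN1, ACTA2, MYH11, ACTG2, SORBS2, MYLK and SMTN have their highest mean in IMF. CALD1, MYLK and SORBS2 have their lowest mean in LD, and SYNPO2 its highest. The SC Hereford array that stood apart is drawn in red.

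CNN1, which binds actin and inhibits the myosin ATPase, had its highest mean in IMF. Its lowest, median and highest values were 3.83, 5.48 and 7.83 on the 12 IMF arrays, 0.55, 1.24 and 6.04 in SC, 0.78, 2.68 and 3.30 in Inter, -0.08, 2.06 and 3.82 in Kid, 0.25, 1.42 and 2.42 in Omen, and 0.62, 2.04 and 4.14 on the 36 LD arrays. IMF overlapped SC only through the SC array that stood apart, and did not overlap Inter, Kid or Omen. IMF exceeded SC by 4.10 ± 0.52 (SE) on the log2 scale, Inter by 3.22 ± 0.40, Kid by 3.74 ± 0.43, Omen by 4.24 ± 0.40 and LD by 3.66 ± 0.28. The order of the means was IMF 5.69, Inter 2.46, LD 2.03, Kid 1.95, SC 1.59 and Omen 1.45, in which neighbours below IMF differed by less than the SD of either (0.70 to 1.45).

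ACTA2, the actin of vascular smooth muscle, had values from 5.34 to 8.48 with a median of 6.87 in IMF, from 2.71 to 6.59 with a median of 3.35 in SC, and from 3.05 to 5.42 with a median of 4.02 in LD. In Inter it ran from 3.21 to 5.05 (median 4.39), in Kid from 3.21 to 5.25 (median 4.30) and in Omen from 2.68 to 4.73 (median 3.87). Every IMF array lay above every Inter, Kid and Omen array, and the lowest IMF array lay below the highest LD array. IMF exceeded SC by 3.33 ± 0.37 and LD by 2.90 ± 0.20 (SE).

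MYH11, the motor protein of the thick filament, had means in the same order of tissues as CNN1. It ran from 3.96 to 7.64 (median 5.49) in IMF, from 0.52 to 6.59 (median 1.63) in SC, from 0.75 to 3.49 (median 2.75) in Inter, from 0.62 to 3.91 (median 2.18) in Kid, from 0.79 to 2.87 (median 1.60) in Omen and from 1.39 to 4.08 (median 2.23) in LD. IMF exceeded SC by 3.85 ± 0.55 and LD by 3.39 ± 0.25 (SE), and its arrays did not overlap those of Inter, Kid or Omen. The other 2 tested probes of MYH11 gave IMF minus SC of 4.09 and 3.58. The probe of MYH11 that was not tested had means of -1.21 in IMF, -5.22 in SC and -5.14 in LD.

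ACTG2, the actin of visceral smooth muscle, showed by its lead probe the widest gap to SC of the 9 genes, 4.67 ± 0.58 (SE). Its values ran from 1.11 to 6.08 (median 2.80) in IMF, from -2.59 to 3.32 (median -2.13) in SC, from -2.69 to 1.10 (median -0.07) in Inter, from -2.49 to 0.57 (median -1.04) in Kid, from -3.20 to 0.11 (median -1.75) in Omen and from -0.13 to 2.49 (median 1.30) in LD. IMF did not overlap Inter, Kid or Omen, and LD lay between IMF and the other fat depots.

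SORBS2, an adaptor that links actin to focal adhesions, ran from 1.95 to 6.06 (median 3.26) in IMF, from -0.05 to 4.08 (median 0.53) in SC and from -0.81 to 1.85 (median -0.03) in LD. The lowest IMF array lay above all LD arrays, and IMF exceeded LD by 3.55 ± 0.29 and SC by 3.01 ± 0.47 (SE). Inter, Kid and Omen had means of 1.04, 0.90 and 0.995, which differed by less than their SDs (0.46 to 0.66).

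MYLK, the calcium-activated kinase, had a higher mean in each fat depot than in LD. Its means ± SD were 5.70 ± 0.83 in IMF, 4.61 ± 0.30 in Omen, 4.56 ± 0.40 in Inter, 4.50 ± 0.42 in Kid, 4.50 ± 0.63 in SC and 2.39 ± 0.45 in LD, and the means of the 4 other fat depots differed by less than any of their SDs. The lowest IMF array (4.52) lay above the highest LD array (3.91) and below the highest array of each other fat depot (5.01 to 6.27). IMF minus SC was 1.20 ± 0.29 and IMF minus LD 3.31 ± 0.19 (SE).

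CALD1, the calmodulin-regulated actin binder, was higher in each fat depot than in LD. It had means ± SD of 6.79 ± 0.51 in IMF, 6.98 ± 0.33 in SC, 6.96 ± 0.25 in Omen, 6.69 ± 0.09 in Inter, 6.68 ± 0.52 in Kid and 4.32 ± 0.27 in LD. IMF minus SC was -0.19 ± 0.17 (SE), with a limma Benjamini-Hochberg adjusted p of 0.34, whereas every fat array (5.41 or higher) lay above every LD array (4.82 or lower).

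SMTN, a protein of fully differentiated contractile cells, had means ± SD of 3.86 ± 0.93 in IMF, 2.99 ± 0.27 in LD, 2.51 ± 0.49 in SC, 2.27 ± 0.51 in Kid, 2.13 ± 0.33 in Omen and 1.85 ± 0.24 in Inter. All IMF arrays (2.66 or higher) lay above all Inter and Omen arrays (2.64 or lower), and they overlapped LD, SC and Kid. SYNPO2, an actin bundling protein of the Z disc and dense body, was the gene whose lead probe was highest in LD, with means ± SD of -0.43 ± 0.36 in LD, -1.63 ± 0.66 in IMF, -3.27 ± 0.54 in SC, -3.36 ± 0.29 in Omen, -3.43 ± 0.48 in Kid and -3.54 ± 0.44 in Inter. IMF minus SC was 1.34 ± 0.29 for SMTN and 1.64 ± 0.24 for SYNPO2 (SE).

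Over all tested probes of the 9 genes, 19 of 23 were higher in IMF than in SC at an adjusted p under 0.05 (31.2% of all probes were) and 0 were lower (33.0%). The remaining 4 were the 3 probes of CALD1 and 1 of SMTN. Against LD, 20 of 23 were higher (36.1% of all probes) and 2 lower (39.2%). The counts higher in IMF were 21 against Inter (32.8%), 22 against Kid (28.4%) and 20 against Omen (27.8%). Arrays did not overlap, with IMF higher, for 1 probe against SC (6.66% of all probes), 10 against LD (6.25%), 10 against Inter (4.25%), 10 against Kid (4.62%) and 13 against Omen (5.09%). Without the SC array that stood apart, the count against SC was 15 (7.45%) and included the lead probes of CNN1, ACTA2, MYH11, ACTG2, SORBS2, SYNPO2 and SMTN. These contrasts served to choose the genes, and the counts are a description.

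All IMF arrays were scanned on the same day and lay on slides that held no other tissue, so slide and tissue cannot be told apart for IMF. On that scan day, 10 Omen arrays and 8 LD arrays were also read. Within that day IMF exceeded Omen by 4.15 for CNN1, 3.103 for ACTA2, 3.95 for MYH11 and 4.67 for ACTG2, and exceeded LD by 3.42, 2.69, 3.13 and 1.56. The only Kid array of that day was below the IMF mean by 1.87 for CNN1 and 1.67 for ACTA2, and the only SC array by 4.23 and 3.73.

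**Figure D2:**
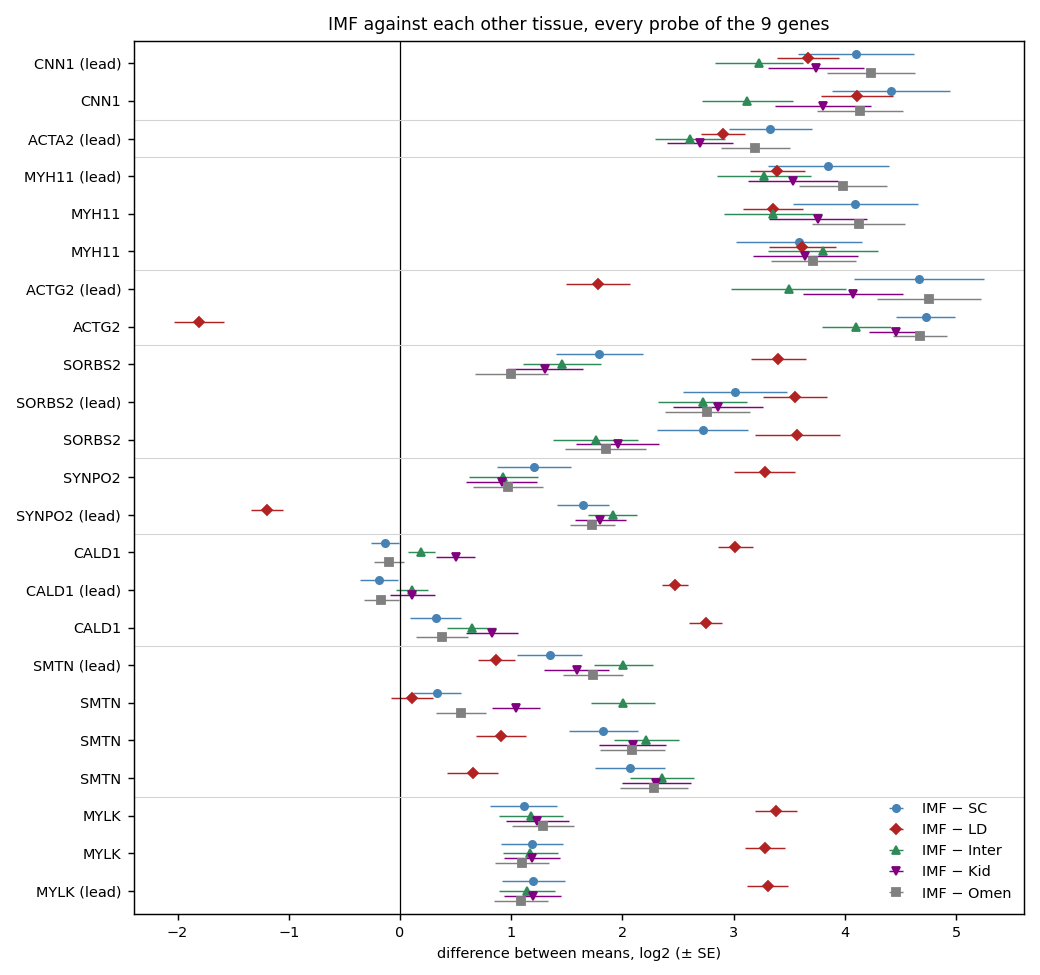
Difference between the mean of IMF and that of each other tissue (horizontal axis, log2, point ± SE) for each of the 23 tested probes, grouped by gene and with the lead probe marked. Most probes of a gene lie together, and the probes of ACTG2 and of SYNPO2 lie on opposite sides of 0 for IMF minus LD.

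The SC array that stood apart also set how the other depots compared with SC. With all 12 SC arrays, 7 of the 23 probes were called for Inter minus SC (48.8% of all probes), 4 for Kid minus SC (41.7%) and 2 for Omen minus SC (45.7%). For Inter minus SC 2 of these were higher and 5 lower, for Kid minus SC 1 was higher and 3 lower, and for Omen minus SC 2 were higher. Without that array the counts were 14 (48.4%; 10 higher, 4 lower), 12 (40.9%; 9 higher, 3 lower) and 4 (45.9%; all higher), so that the balance of directions turned for Inter and Kid. For LD minus SC, 17 were called (82.9%; 8 higher, 9 lower; without that array 19, 11 higher and 8 lower), among them CALD1 (-2.66 ± 0.10) and MYLK (-2.11 ± 0.16), which were lower in LD, and SYNPO2 (2.84 ± 0.14) and ACTG2 (2.89 ± 0.33), which were higher (difference ± SE). On that SC array CNN1 was at 6.04, MYH11 at 6.59, ACTA2 at 6.59 and ACTG2 at 3.32, against highest values of 1.78, 2.02, 3.77 and -0.82 on the other SC arrays. Each of these 4 values lay inside the range of the 12 IMF arrays.

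Probes of a gene gave like differences for CNN1, MYH11, SORBS2, CALD1 and MYLK, and unlike differences for ACTG2 and SYNPO2. Disagreement was defined as opposite signs with both past the threshold, or a gap of over 2 on the log2 scale. For ACTG2, the lead probe A_73_115488 had an IMF minus LD difference of 1.78 ± 0.29 (SE) and the probe A_73_P099801 one of -1.81 ± 0.22. The latter ran from 6.32 to 8.57 (median 7.84) in LD, from 4.63 to 6.90 (median 6.02) in IMF, and from 0.50 to 2.65 (median 1.18) in SC. LD exceeded SC by 6.53 by this probe and by 2.89 by the lead probe. Its highest value in Inter, 4.03, was on the array with raised skeletal myofibre markers, and the other 11 Inter arrays reached at most 2.26. Actins form a family of near-identical coding sequence, no probe sequence was at hand, and signal from another actin cannot be told apart from ACTG2 here.

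For SYNPO2, the lead probe A_73_P414671 had an IMF minus LD difference of -1.20 ± 0.15 (SE) and the probe A_73_115395 one of 3.28 ± 0.27. The probe A_73_115395 ran from -4.60 to -1.23 (median -3.65) in IMF, from -5.61 to -3.14 (median -4.40) in SC and from -8.08 to -4.84 (median -6.67) in LD, where it was well above background on only 4 of 36 arrays. LD values below the lowest signal above background of their array were then raised to it, which gives lower bounds. By this probe IMF exceeded LD by at least 2.73, and SC exceeded LD by at least 1.53. By the lead probe, in contrast, LD exceeded SC by 2.84. Over the 60 fat arrays the probes of SYNPO2 had a Pearson r of 0.73, and over all 96 arrays, with LD near the background for one of them, -0.59, while over all 96 the probes of CNN1 had 0.97, all pairs of CALD1 probes 0.96 or more, and the probes of ACTG2 0.75. These correlations share the scaling of each array and the differences between tissues. The SMTN probe A_73_P254421 was the remaining odd probe: within IMF its r with the lead probe was -0.06, whereas the other 2 SMTN probes had 0.996 and 0.98 with the lead probe.

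The same probes parted when set against the muscle share of each IMF array. The ACTG2 probe A_73_P099801 had a Pearson r of 0.95 with the muscle share over 12 IMF arrays (Spearman 0.92; 0.94 without the 2 arrays farthest from the median), and the ACTG2 lead probe had 0.36. The SYNPO2 lead probe had 0.62 and the probe A_73_115395 had 0.13. For CNN1, ACTA2, MYH11, SORBS2 and MYLK the lead probes had r between 0.05 and 0.13, and CALD1 had -0.33. All of these share the scaling of the array and the share itself was computed from the same arrays.

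A mixture of the SC and LD means at the muscle share of each array gives a level with which IMF can be compared. The ACTG2 probe A_73_P099801 lay a median of 0.07 above it (-0.20 to 0.56 over the 12 arrays), the SYNPO2 lead probe 0.08 (-0.39 to 1.20) and CALD1 0.14 (-0.46 to 1.28). In contrast, CNN1 lay 3.69 above the mixture (2.11 to 6.03), MYH11 3.46 (1.99 to 5.59), ACTA2 3.11 (1.62 to 4.68), the ACTG2 lead probe 2.84 (1.26 to 5.74) and SORBS2 2.67 (1.33 to 5.53). MYLK lay 1.64 above it and SMTN 0.88. The lead probes of CNN1, MYH11, ACTA2, ACTG2, SORBS2 and MYLK were above the mixture on 12 of 12 IMF arrays. CNN1, MYH11, ACTA2, ACTG2 and SORBS2 were chosen as higher in IMF than in muscle and other fat, which favours a level above the mixture. The share of all probes above the mixture was not computed, and these values are a description. The SC mean in the mixture holds the array that stood apart.

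**Figure D3:**
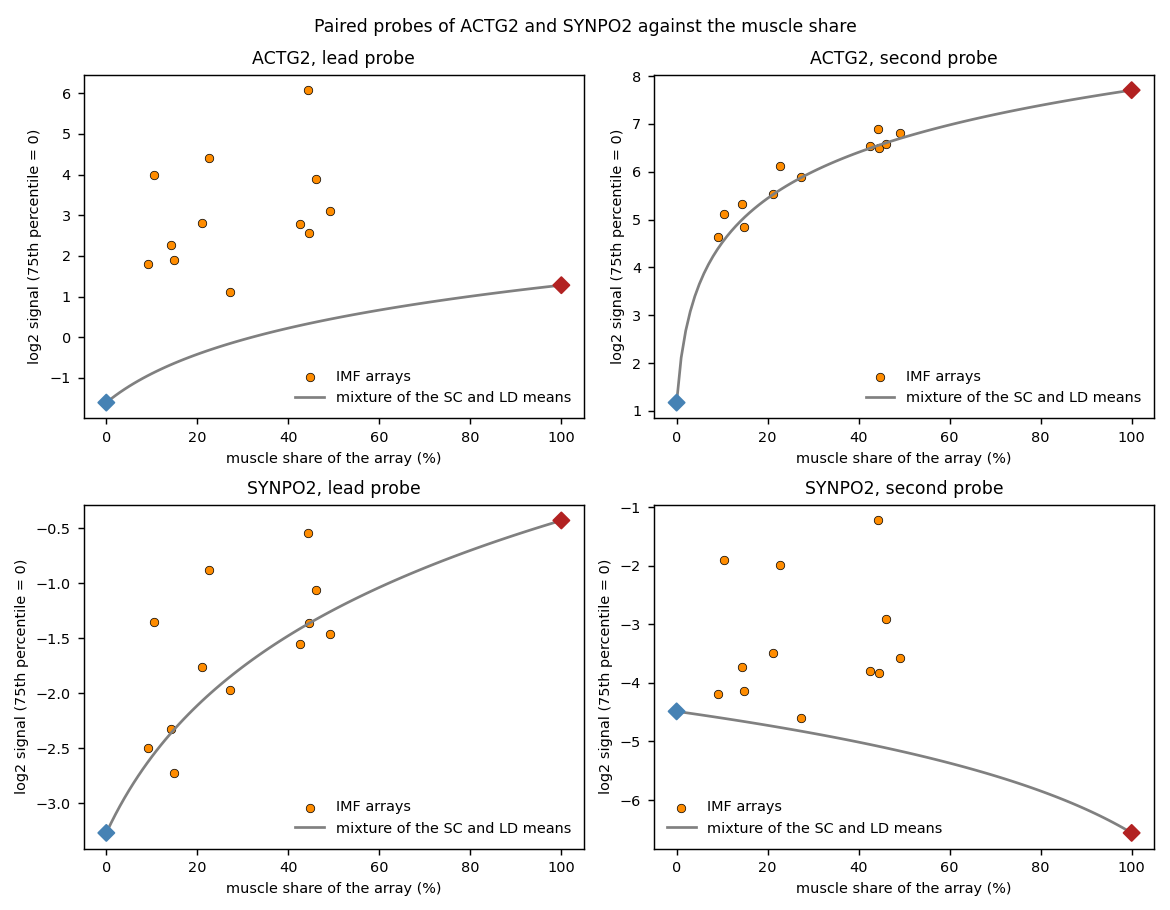
Level of the paired probes of ACTG2 and SYNPO2 (vertical axis, log2 signal with the 75th percentile at 0) against the muscle share (horizontal axis, %) on the 12 IMF arrays (orange points), with the SC mean (blue), the LD mean (red) and the line of their mixtures. The ACTG2 second probe, A_73_P099801, follows the line (r = 0.95), the ACTG2 lead probe lies above it, the SYNPO2 lead probe is spread about it, and the LD mean of the SYNPO2 second probe, A_73_115395, is near the background.

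How far the 9 genes varied together between arrays of a tissue was described by pairs. Over the 36 pairs of lead probes, the median Pearson r of deviations from breed means was 0.85 in IMF (12 arrays), 0.88 in SC, 0.78 in Kid, 0.61 in Inter, 0.41 in Omen and 0.26 in LD (36 arrays, deviations from means of breed and diet). Over all pairs of 30026 probes the medians were 0.00 to 0.06. In Omen 23 of the 36 pairs had a positive r and 15 an r over 0.5, SYNPO2 had a negative r with all 8 other genes, and the median was 0.22 with series matrix values. In LD 33 pairs were positive and 12 over 0.5. The SC value fell to 0.31 over the other 11 arrays when the array that stood apart was left out, and the Kid value to 0.61 without the Kid array with low levels. The pairs share the scaling of an array and, within a tissue, its dissection.

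The highest r in each tissue but SC was of a pair with CNN1. In IMF the highest r was 0.99, for CNN1 with MYLK, and in Kid 0.98, in Omen 0.93 and in LD 0.91 for pairs of CNN1 with ACTA2 or MYH11. In Inter the highest were CNN1 with ACTG2 (0.93) and CNN1 with MYH11 (0.92), and in SC it was MYH11 with ACTG2 (0.98). SYNPO2 was in the lowest pairs of IMF and Omen: in IMF its r with CALD1 was -0.14, the only negative value among the 36, and in Omen SYNPO2 had -0.65 with ACTA2 and -0.57 with CNN1.

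**Figure D4:**
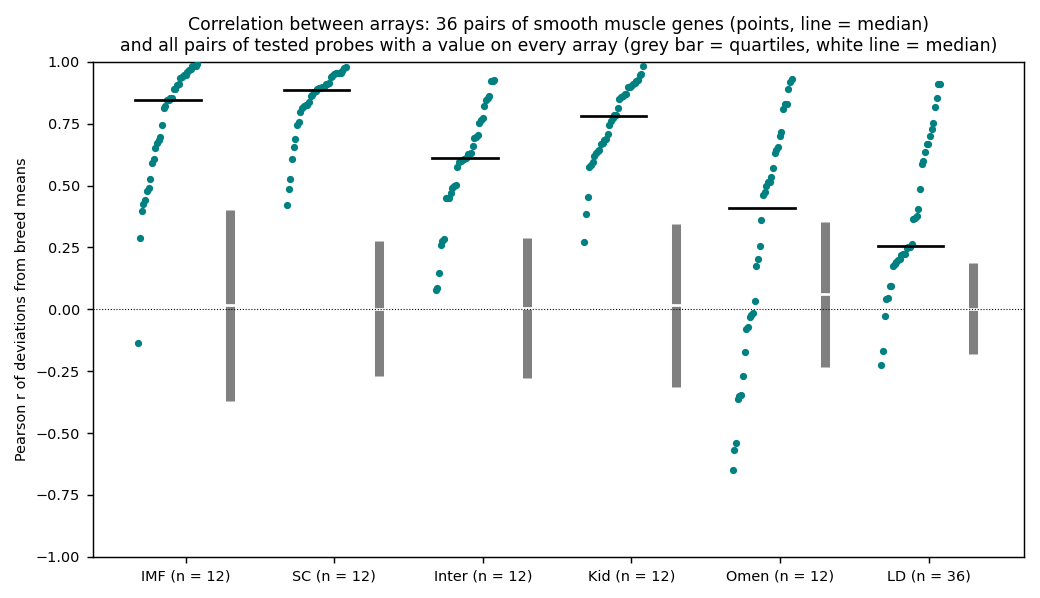
Pearson r between arrays for the 36 pairs of lead probes in each tissue (points, with their median as a line), beside the quartiles (grey bar) and median (white line) over all pairs of the 30026 tested probes with a value on every array. The medians run from 0.88 in SC and 0.85 in IMF to 0.26 in LD, and the SC value rests on the array that stood apart (0.31 without it).

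The 10 genes most like the 9, by the r of their deviations from depot and breed means with the mean of the 9 over the 60 fat arrays, were named as a description. They were NDRG4 (0.92), ACTB (0.92), CTPS2 (0.89), TAGLN (0.88), LMOD1 (0.88), DES (0.86), PPP1R14A (0.85), ATP2C2 (0.83), SLMAP (0.83) and SPARCL1 (0.82). For ACTB, signal from another actin cannot be told apart. TAGLN (transgelin) and LMOD1 (leiomodin) are proteins of the smooth muscle thin filament, DES (desmin) is the intermediate filament of muscle, and PPP1R14A inhibits myosin phosphatase. For NDRG4 the mean was 0.33 in IMF and -3.00 to -2.16 in the other 4 fat depots, and its r was 0.95 within IMF. DES had the lowest r within IMF, 0.37, and was highest in LD, at 8.83 against 7.80 in IMF.

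Within tissues, markers of other cells moved with the mean of the 9 genes. In IMF the r over 12 arrays was 0.67 for tendon and perimysium markers, 0.61 for pericyte markers, 0.18 for skeletal myofibre markers, -0.53 for macrophage markers, -0.65 for endothelial markers, -0.67 for Schwann cell markers and -0.69 for mesothelial markers. Endothelial markers had the opposite sign in Omen (0.79), Kid (0.56) and Inter (0.52). In Inter pericyte markers had 0.90 and in Omen 0.84, and in LD they had 0.40. In SC the tendon and perimysium markers had 0.93, with the array that stood apart among the 12. The part of these cells in the values was not tested.

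The rule that chose the genes names no difference among Inter, Kid and Omen and no breed, although earlier results of these data were known. The former were tested with limma, with Benjamini-Hochberg adjustment over all 34227 probes. CNN1 was higher in Inter than in Omen by both of its probes, with differences of 1.01 ± 0.29 (SE; adjusted p = 0.023) and 1.01 ± 0.27 (adjusted p = 0.017). Its ranges overlapped (0.78 to 3.30 in Inter, 0.25 to 2.42 in Omen). CALD1 was lower in Inter than in Omen by a small step, -0.27 ± 0.08 (adjusted p = 0.029). The SMTN probe A_73_P254421 was lower in Inter than in Omen, at -1.46 ± 0.27 (adjusted p = 0.0014; 11 Omen arrays had a value), and lower than in Kid, at -0.96 ± 0.26 (adjusted p = 0.018). The other 3 SMTN probes were not called in either comparison. Markers also differed between Inter and Omen: 4 of 6 tendon and perimysium markers (median difference 2.14) and 6 of 12 skeletal myofibre markers (2.26) were higher in Inter, and 4 of 9 endothelial (-0.33) and 6 of 6 mesothelial markers (-1.95) were lower, and their part was not tested. The CALD1 probe A_73_P041261 was lower in Kid than in Omen, at -0.60 ± 0.16 (adjusted p = 0.017), and at -0.48 ± 0.12 (adjusted p = 0.012) without the Kid array with low levels.

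In all, 4 of 23 probes were called for Inter minus Omen (13.6% of all probes), 1 for Inter minus Kid (15.4%) and 1 for Kid minus Omen (12.1%), a share near that of all probes for Inter minus Omen and below it for the others. With slide as a random block fewer probes were called in each of these comparisons, as given in the closing section on processing. ACTA2 (0.59 ± 0.25), ACTG2 (1.26 ± 0.46) and MYH11 (0.71 ± 0.33) were not called for Inter minus Omen (difference ± SE). Inter was scanned on 1 day only, and with the scan day as a block 0 of 23 were called for Inter minus Omen (3 at an unadjusted p under 0.05; 1.42% of all probes called) and 0 for Inter minus Kid (1 unadjusted; 8.11% of all probes called). For Kid minus Omen that block gave 1 call (8 unadjusted; 0.821% of all probes called), which was another probe: the ACTG2 probe A_73_P099801 was higher in Kid by 0.80 ± 0.18 (SE; adjusted p = 0.036), and the CALD1 probe A_73_P041261 was at -0.48 ± 0.26 (adjusted p = 0.299). That ACTG2 probe followed the muscle share in IMF, and without the block 6 of 12 skeletal myofibre markers were higher in Kid than in Omen (median difference 1.22) and 0 lower. The part of muscle in that call was not tested. For Kid minus Omen the median over the 23 probes was 0.47 with the block and -0.004 without it. Within the scan day of Inter, with 2 Omen arrays, Inter minus Omen was 1.45 for the CNN1 lead probe and -0.06 for the CALD1 lead probe, and -0.76 for the SMTN probe, which had a value on 1 of the 2. The other was the array with 5528 spots marked as outliers. On that day Kid minus Omen was 0.84 for the ACTG2 probe and -0.49 for the CALD1 probe A_73_P041261, and Inter minus Kid, with 6 Kid arrays, was -0.72 for the SMTN probe. Without the Inter array with raised skeletal myofibre markers the counts were 4 for Inter minus Omen and 1 for Inter minus Kid, and without the Omen array with many outlier spots they were 5 for Inter minus Omen and 2 for Kid minus Omen. Without the Kid array with low levels they were 2 for Inter minus Kid and 1 for Kid minus Omen, and 5 for breed over the fat arrays. The shares of all probes called in these fits without an array are not given, so their counts describe only how the calls moved.

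For breed, over the 60 fat arrays, with depot as a term, 4 of 23 probes differed between breeds in limma's F test (3.2% of all probes were called). These were the 3 probes of MYLK and the SYNPO2 probe A_73_115395. The MYLK lead probe was higher in Hereford than in Wagyu x Angus by 0.68 ± 0.15 (SE; adjusted p of the F test = 0.0093) and the other 2 MYLK probes by 0.72 ± 0.16 and 0.67 ± 0.14 (adjusted p = 0.010 and 0.0071). The SYNPO2 probe was higher by 0.83 ± 0.17 (adjusted p = 0.0061). The 3 MYLK probes stayed past the threshold in each of 9 alternative settings that kept all depots and all Kid arrays, with adjusted p in limma from 0.0049 to 0.018. The SYNPO2 probe did so in 8 of 9, with adjusted p up to 0.063. By depot, Hereford minus Wagyu x Angus for the MYLK lead probe was 1.77 ± 0.25 in IMF, 0.90 ± 0.35 in SC (0.47 ± 0.17 without the SC array that stood apart), 0.35 ± 0.22 in Inter, 0.03 ± 0.29 in Kid and 0.34 ± 0.20 in Omen (SE). Without the IMF arrays it was 0.41 ± 0.15 over the other depots, and the F test called 0 of 23 probes (4 unadjusted; 1.21% of all probes called). The Hereford means were also above the Wagyu x Angus means for CNN1 (0.64 ± 0.33), MYH11 (0.99 ± 0.32) and SORBS2 (0.81 ± 0.26), which did not pass the test. Without the SC array that stood apart the differences of CNN1, MYH11 and SORBS2 were 0.41 ± 0.27, 0.74 ± 0.26 and 0.64 ± 0.23.

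Within IMF, where each breed had 4 arrays, the F test for breed called 0 of 23 probes after adjustment (0.0555% of all probes), while 21 of 23 had an unadjusted p under 0.05 (13.9% of all probes did). The same counts at an unadjusted p under 0.05 were 2 in SC (7.77%), 5 in Inter (4.63%), 2 in Kid (3.92%) and 4 in Omen (6.74%). The 4 Hereford IMF arrays had CNN1 at 5.54, 7.06, 7.29 and 7.83, the 4 Angus arrays at 5.33, 5.45, 5.50 and 6.53, and the 4 Wagyu x Angus arrays at 3.83, 4.39, 4.56 and 4.97. Wagyu x Angus did not overlap either other breed, and Hereford overlapped Angus.

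ACTA2 was at 6.94, 7.94, 8.13 and 8.48 in Hereford, 6.75, 6.79, 6.97 and 7.45 in Angus, and 5.34, 6.03, 6.03 and 6.23 in Wagyu x Angus. MYLK was at 5.95, 6.66, 6.77 and 7.08 in Hereford, 5.41, 5.49, 5.53 and 6.11 in Angus, and 4.52, 4.75, 4.90 and 5.20 in Wagyu x Angus. The means of all 9 lead probes stood in the order Hereford, Angus, Wagyu x Angus, and for CALD1 (7.31, 6.61 and 6.46) the lower pair differed by less than its SDs (0.28 and 0.47).

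A contrast of Hereford and Wagyu x Angus within IMF was chosen after these values were seen, as 1 of 21 pairwise contrasts of breeds that were computed, and is given with that limit. It called 10 of 23 probes (0.768% of all probes), with ACTA2 higher in Hereford by 1.96 ± 0.31 (SE; adjusted p = 0.035), MYH11 by 2.55 ± 0.41 (0.035), CNN1 by 2.49 ± 0.45 (0.039) and MYLK by 1.77 ± 0.25 (0.027). ACTG2 (2.47 ± 0.59), SORBS2 (2.36 ± 0.59) and SMTN (1.71 ± 0.41) had like differences and did not pass. With slide as a fixed block (21 unadjusted) or with a replicate block (22 unadjusted) 0 probes were called on the whole array, and the median difference over the 23 probes was 2.26 and 1.91 against 1.96 without a block. Leaving out single arrays gave 0 to 18 calls, with 0 in 6 of 12 such fits and 1 in another (21 or 22 unadjusted in each). In those 6 fits 0 to 31 of all probes were called.

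Breed was partly aligned with slide. Slide 8 held 3 Wagyu x Angus and 1 Angus array, slide 9 held 3 Hereford and 1 Angus, and slide 18 held 2 Angus, 1 Hereford and 1 Wagyu x Angus. On slide 18, CNN1 was 7.83 on the Hereford array, 5.99 as the mean of Angus and 4.56 on the Wagyu x Angus array, and that order of breeds held there for 9 of 9 lead probes. On slide 9 the Hereford mean was above the Angus array for 9 of 9. On slide 8 the Angus array was above the Wagyu x Angus mean for 8 of 9, with SYNPO2 the exception. The Hereford array at position 2 of slide 9 lay below the Angus array for SORBS2 (2.944 against 3.571), SYNPO2 (-1.767 against -1.555) and SMTN (3.357 against 3.735). The 9 genes varied together in IMF, and on each slide a single array stood for at least 1 breed, so these counts are not replicates. The muscle share overlapped between breeds, with 10.4% to 44.3% in Hereford, 14.3% to 49.1% in Angus and 9.08% to 44.6% in Wagyu x Angus. Pericyte markers had means of 0.95, 0.56 and 0.40 in Hereford, Angus and Wagyu x Angus, Schwann cell markers -0.003, -1.08 and 1.55, and adipocyte markers 3.30, 3.67 and 4.18. Tendon and perimysium markers were at 1.15, 0.82 and 0.44 and endothelial markers at 2.07, 1.85 and 1.83. These lists and the pericyte list stood in the order of the 9 genes. Macrophage markers were lower in Hereford (-1.50 to -0.77) than in Angus (-0.64 to 0.37) or Wagyu x Angus (-0.75 to 0.49), without overlap. The part of these cells was not tested.

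**Figure D5:**
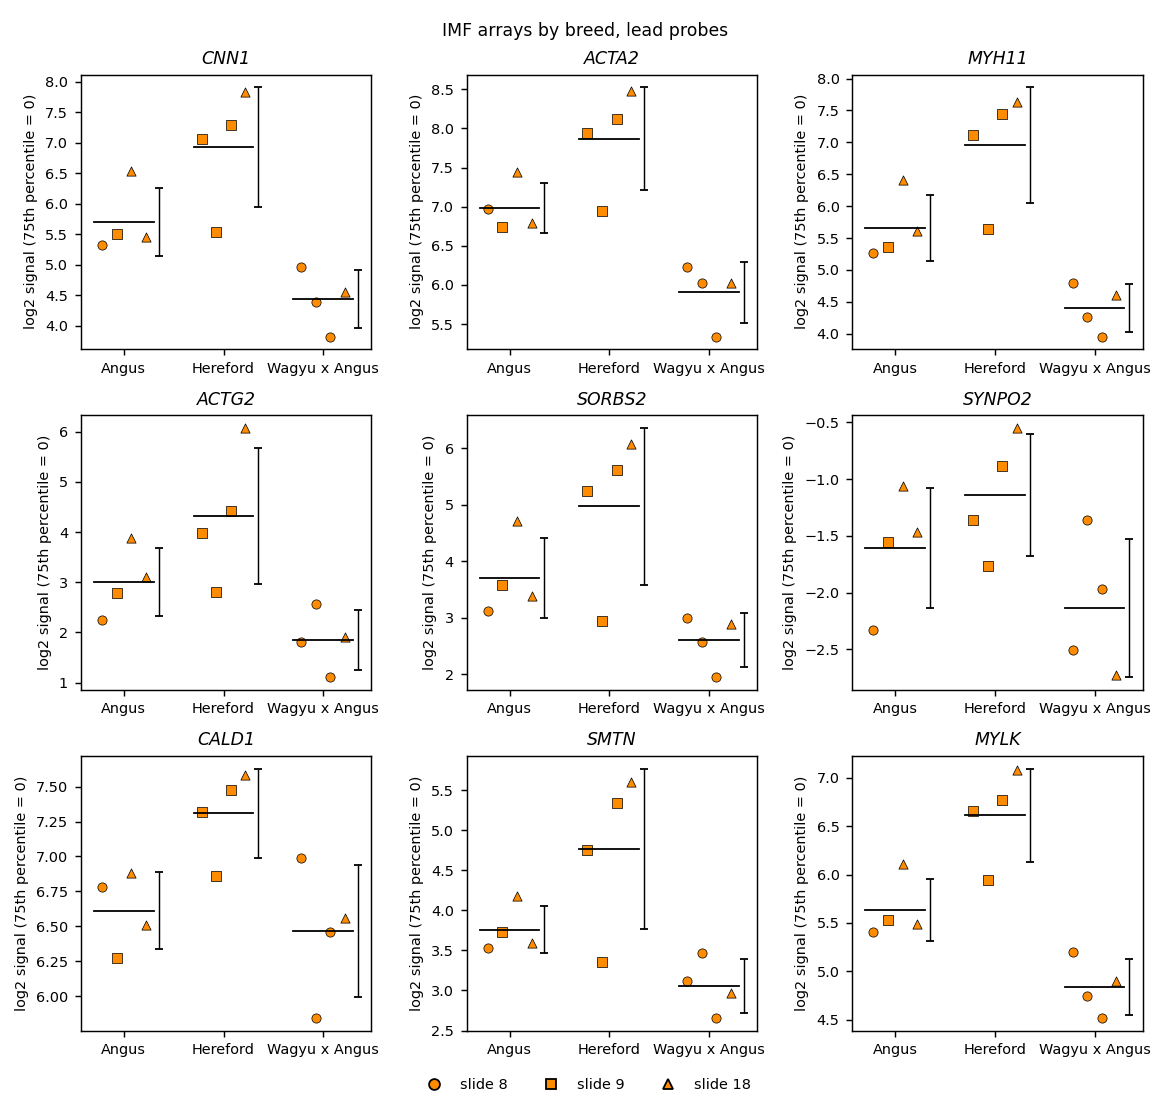
Level of the 9 lead probes on the 12 IMF arrays by breed (vertical axis, log2 signal with the 75th percentile at 0; marker shape, slide), with the mean (line) and SD (bar) of 4 arrays. Hereford has the highest mean and Wagyu x Angus the lowest in every panel, and CNN1 in Wagyu x Angus (3.83 to 4.97) does not overlap the other breeds.

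Whether IMF minus SC depended on breed was tested as an interaction, which called 0 of 23 probes (0.00584% of all probes) and gave 1 of 23 at an unadjusted p under 0.05 (6.08%). Without the SC array that stood apart, 0 were called and 17 of 23 had an unadjusted p under 0.05 (6.25%). By breed, CNN1 had an IMF minus SC difference of 4.38 ± 0.30 for Angus, 4.78 ± 1.18 for Hereford and 3.14 ± 0.27 for the Wagyu x Angus arrays (SE). The Hereford value was 6.08 without that SC array. For ACTG2 the differences were 4.95, 5.14 and 3.91, and the Hereford value was 6.53 without it.

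In LD, breed was called for 7 of 23 probes (25.3% of all probes), a share near that of all probes. They were the ACTG2 probe A_73_P099801, the CALD1 probe A_73_P041261, 2 SMTN probes, the SORBS2 probe A_73_P316181 and both SYNPO2 probes, of which A_73_115395 was near the background in LD. The ACTG2 probe was higher in Wagyu x Angus than in Angus by 0.87 ± 0.20 (SE; adjusted p of the F test = 0.0080). The muscle share of LD arrays also differed in its median, 92.3% in Angus (74.2% to 108.8%) and 111.5% in Wagyu x Angus (96.5% to 116.1%), and breed called 9 of 12 skeletal myofibre, 7 of 9 endothelial and 4 of 8 adipocyte markers in LD, whose part was not tested. The SYNPO2 lead probe was higher in Hereford than in Angus by 0.35 ± 0.11 (adjusted p = 0.033). With slide as a random block 0 were called (3 unadjusted), and 0.0438% of all probes were.

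The supplement after weaning was compared with pasture over the 36 LD arrays with breed as a term. SYNPO2 was the gene called among the 9, by its lead probe, with values from -0.86 to 0.68 (median -0.16) on the 12 supplement arrays and from -1.16 to 0.09 (median -0.58) on the 24 pasture arrays, which overlapped. The difference was 0.38 ± 0.10 (SE; adjusted p = 0.011). Between the same arrays 4 of 8 adipocyte markers were lower with the supplement (median difference over the list -1.11), 6 of 9 endothelial markers were higher (0.43) and 4 of 12 skeletal myofibre markers were higher (0.15), and their part was not tested. That is 1 of 23 probes, and 11.2% of all probes were called. Each breed of the supplement group lay on a slide of its own, and with slide as a random block 0 were called (1 unadjusted), when 1 of all 34227 probes was (0.00292%). Time of slaughter was not in the model. MYLK was at -0.34 ± 0.14 and CNN1 at -0.18 ± 0.24, which did not pass.

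Other genes of the contractile system were taken from a list of 57 by role, of which 46 had a tested probe. Of these, 26 were higher and 9 lower in IMF than in SC (31.2% and 33.0% of all probes), and 24 were higher and 17 lower in IMF than in LD (36.1% and 39.2%), with medians of 0.57 and 0.50 against medians of 0.00 and -0.04 over all probes. Apart from TAGLN and ACTB, the genes named from this list for IMF were picked after their values were seen. Among the thin filament genes, TAGLN was higher in IMF than in SC by 2.61 ± 0.37 and than in LD by 2.95 ± 0.23, and ACTB by 4.38 ± 0.59 and 4.42 ± 0.33 (SE). Signal from another actin cannot be told apart from ACTB here, as for ACTG2. TPM1 and TPM2, the tropomyosins, were higher in IMF than in SC (3.06 and 4.44) and lower than in LD (-1.70 and -1.35). CNN2 and CNN3, the calponins found outside smooth muscle, had IMF minus SC of -0.28 and -0.08.

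Thick filament genes split, with MYH9, a nonmuscle myosin, at 1.59 ± 0.38 and MYL9, the smooth muscle light chain, at 0.41 ± 0.26 for IMF minus SC (SE), of which the first was called. Among the regulators, PPP1R14A was higher in IMF than in SC by 1.69 and than in LD by 2.39, and PRKG1, the cGMP-dependent kinase, by 1.73 and 1.68. Of the channels, KCNMB1, the smooth muscle subunit of the calcium-activated potassium channel, was higher by 1.08 and 3.15. Genes of dense plaques that skeletal muscle shares, such as PDLIM5, PDLIM3 and SYNM, were higher in IMF than in SC (9.10, 6.67 and 2.85) and lower than in LD (-1.82, -1.31 and -1.72). SRF, the transcription factor of the contractile genes, was higher in IMF than in SC by 1.81 and was lower than in LD.

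Among Inter, Kid and Omen, 7 of the 46 related genes were called for Inter minus Kid (5 higher; 15.4% of all probes), 3 for Inter minus Omen (1 higher; 13.6%) and 5 for Kid minus Omen (1 higher; 12.1%), shares near or below those of all probes. With scan day as a block the counts were 3, 1 and 0 (8.11%, 1.42% and 0.821% of all probes called). KCNMA1, the pore of the potassium channel, was higher in Inter than in Kid by 1.66 ± 0.37 (SE; adjusted p = 0.0059), and with scan day as a block by 1.60 ± 0.47 (adjusted p = 0.038). PRKG1 was lower than in Omen both in Inter (-0.69 ± 0.12, adjusted p = 0.00070) and in Kid (-1.03 ± 0.18, 0.00089), and with scan day as a block by -0.61 ± 0.23 and -0.93 ± 0.29, which did not pass (adjusted p = 0.14 and 0.088).

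Breed called 2 of the 46 over the fat arrays (3.2% of all probes), MYH9 and LPP, of which MYH9 had an adjusted p of 0.0505 with slide as a random block (2.83% of all probes called). In LD, breed called 18 (25.3% of all probes) and the supplement 6 (11.2%), and with slide as a random block both counts were 0 (13 and 5 unadjusted; 0.0438% and 0.00292% of all probes called).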

How the data were processed

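Total RNA from fat and muscle was hybridised to one-colour (Cy3) Agilent bovine arrays. Per the file headers, the intensity values were spot signals that the authors extracted with Agilent Feature Extraction, background-subtracted and not normalized between arrays. The series matrix deposited by the authors held log2 values. All 3285792 of them equalled, within 0.0001, the mean over spots of the log2 of median signal minus median background. The levels given here used the processed signal instead. Groups and replicates came from the labels, in which the replicate number is the position on a slide.

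Spots marked as outliers were dropped, spots of a probe averaged, and log2 intensity was expressed relative to the 75th percentile of the probes that are not controls (43653) on each array. The 34227 probes of the series matrix were tested. No spot was saturated, and the number of arrays limits the precision. Of these probes, 21445 (62.66%) were named: 19903 by accession through RefSeq gene tables, 4446 by probe tables of the study, and 2753 of the 2904 named by both had the same name. Members and lists were chosen with earlier results of these data known. The lead probe was that of the study's IMF lists or else the probe with the highest mean over 96 arrays. All probes of the 9 genes were reported, related genes came from a list by role, and the 10 most alike genes by correlation over the fat arrays.

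Differences were tested with lmFit and eBayes of limma 3.58.1 (R 4.3.3) on the groups compared, with Benjamini-Hochberg adjustment over 34227 probes and a threshold of 0.05. Breed was tested by F over the fat arrays with depot as a term and over LD with diet as a term. SDs, correlations and muscle shares were computed in Python 3.11.15 (pandas 2.3.3). For each of the muscle probes (higher in LD than in SC by over 4-fold), the unlogged signal of an array was placed between the SC mean (0%) and the LD mean (100%), and the share is the median of these places. The fits were tested on simulated data. Alternatives were quantile normalization, normexp (offset 50), series matrix values, filters on probes, the methods' test, blocks of slide, scan day or replicate number, single arrays left out, and other choices of probe. The correlation for slide as a random block (statmod 1.5.0) was estimated on a subset of probes. Contrasts of breeds within IMF and fits without an array that stood apart, had low levels or had many outlier spots, or without IMF, were added after the data were seen. Probe sequences and coordinates were not used here.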

Additional observations from a re-analysis of the deposited data

How the results depend on the processing

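Of 450 alternative values of a difference by lead probe, 438 moved by less than the spread between arrays, 8 moved by more and 4 that passed the threshold changed sign. A further 17 values changed sign for differences that did not pass it, all of 0.27 or smaller in size. ACTG2, IMF minus LD, was -1.81 by the brightest probe and -0.014 by the mean of its probes. SYNPO2, IMF minus LD, was 1.04 by the mean of its probes, and ACTA2, LD minus SC, was -0.052 after quantile normalization. Quantile and normexp values shifted the median of all probes for IMF minus SC to -0.10 and -0.21 and for IMF minus LD to -0.15 and -0.35.

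Of 156 alternative counts and covariances, 117 stayed within 1.5 times or within the spread. With slide as a random block, the probes called were 0 for Inter minus Kid (2 unadjusted), 1 for Inter minus Omen, 0 for Kid minus Omen (4 unadjusted), 0 for breed in LD (3 unadjusted) and 0 for the supplement (1 unadjusted). With scan day as a block they were 0 for Inter minus Kid (1 unadjusted), 0 for Inter minus Omen (3 unadjusted), 1 for Kid minus Omen (another probe, 8 unadjusted), 1 for breed in LD and 0 for the supplement (3 unadjusted). Without the Omen array with many outlier spots it was 2 for Kid minus Omen, and without the Kid array with low levels 2 for Inter minus Kid. One spread over all 60 fat arrays gave 1 for Inter minus Omen. Quantile, normexp and series matrix values each gave 2 for Kid minus Omen. Quantile values and the filter on probes above background each gave 2 for the supplement. Breed gave 0 over the fat arrays without IMF (4 unadjusted) and 0 in IMF, SC, Inter, Kid and Omen alone (21, 2, 5, 2 and 4 unadjusted). For Hereford minus Wagyu x Angus in IMF the count was 6 with series matrix values, 0 with slide as a fixed block, and 0 to 18 with single arrays left out: 0 in 6 of 12 such fits (without slide 8 position 3 or 4, slide 9 position 1 or 3, or slide 18 position 3 or 4) and 18 without the Hereford array on slide 9, position 2. After adjustment the methods' t-test called 1, 4 and 1 for Inter minus Kid, Inter minus Omen and Kid minus Omen (2, 11 and 4 unadjusted). The covariance in SC was 0.72 by Spearman and 0.31 without the array that stood apart, and that in Kid was 0.61 without the array with low levels. The cause was not tested.

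Replicate numbers are slide positions, so they name no shared steer. With a replicate block the counts were 1 for Inter minus Kid, 4 for Inter minus Omen, 1 for Kid minus Omen, 4 and 6 for breed in fat and LD, 1 for the supplement, 0 for the dependence of IMF minus SC on breed and 0 for Hereford minus Wagyu x Angus in IMF. That dependence gave 0 calls with any single array left out (0 to 17 unadjusted). Slide and tissue cannot be told apart for IMF, and the number of arrays limits the precision.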
